A study of Sus scrofa with 12 samples.

Results

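Heat shock proteins and their regulators were followed through the early cleavage of porcine (Sus scrofa) embryos, with and without depletion of cyclin B2 (CCNB2). The 10 genes HSPA8, HSPA5, HSPA9, HSPA4, HSPD1, HSPE1, HSP90AA1, HSP90AB1, HSF1 and HSF2 were chosen by symbol. Of these, 9 had a row among the 29329 genes of the count table, and HSP90AA1 was not analysed here. All 9 passed the filter on low counts, which 17995 genes of the table passed. Embryos were produced by in vitro fertilisation, and polyadenylated RNA of pools of embryos was amplified by SMART-seq, which makes full-length cDNA from a few cells. Each of 4 groups had 3 libraries. The titles con-2c and con-4c belong to blank control embryos, and the titles si-2c and si-4c belong to embryos given si-CCNB2, a short interfering RNA against CCNB2 mRNA. The labels and methods leave unclear whether the control embryos were injected, so injection and depletion cannot be told apart. The title and the tissue label named different stages in all 12 libraries, with 2c titles on 4-cell tissue labels and the reverse, and group names stand for the titles.

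Heat shock proteins are molecular chaperones that bind unfolded or partly folded proteins and help them reach or keep their shape, and most are made in unstressed cells as well as after heat. HSP70 proteins take hold of short exposed stretches in a cycle of ATP binding and hydrolysis, helped by J proteins and by exchange factors of the HSP110 type, and can hand their clients on to HSP90. HSP60 and HSP10 form a closed folding chamber in mitochondria. Heat shock factors are the transcription factors that induce chaperone genes. In early mammalian embryos, transcripts stored by the oocyte are degraded while transcription from the embryonic genome starts, and HSP70 transcripts are known among the early products of that start.

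Library totals were between 27785233 and 39510908 counts. Levels are given as CPM, the counts relative to the library total scaled by TMM factors, with a mean ± SD of 3 libraries. The CPM were not divided by transcript length, so levels were compared between groups within a gene and not between genes. The mean level of CCNB2 was 464 CPM ± 21.7 for con-2c, 475 CPM ± 41.9 for con-4c, 22.7 CPM ± 5.58 for si-2c and 42.6 CPM ± 3.65 for si-4c, so the si titles matched a low level of the targeted gene. The stage titles of the si libraries did not line up with those of the controls over all genes. Set beside con-2c, si-4c had 0.106% of all genes tested higher and 0.567% lower at an adjusted p below 0.05, and set beside con-4c it had 15.1% higher and 21.7% lower. For every gene, si-4c was also read beside con-2c and si-2c beside con-4c. The 12 listed oocyte and early embryo markers were all in the table, with a summed level of 20650 to 25550 CPM in con-2c, 23660 to 25950 in si-4c, 10800 to 11630 in con-4c and 11040 to 12760 in si-2c. BTG4 alone made up 63.2% to 80.6% of this sum in any library. The 11 other markers summed to 5221 to 5392 CPM in con-2c, 4872 to 5047 in si-4c, 3642 to 3653 in con-4c and 3845 to 4062 in si-2c. Single markers differed in pattern. OOEP followed the sum, at 1263 to 1435 CPM in con-2c, 992 to 1071 in si-4c, 360.0 to 378 in con-4c and 397 to 487 in si-2c, as did ZP4, and GDF9 and ZP3 were also above con-4c in con-2c and si-4c. Others did not follow it, with BMP15 at 835 to 914 CPM in con-2c and 1166 to 1303 in si-2c, and KPNA7 at 866 to 1186 CPM, PADI6 at 94.0 to 126 CPM and ZP2 at 139 to 190 CPM over all libraries. Of 12 cumulus and granulosa markers, 9 were in the table and summed to 1.18 to 2.03 CPM in con-2c, 0.781 to 1.43 in si-4c, 3.52 to 4.36 in con-4c and 2.56 to 4.80 in si-2c, with CYP11A1 and FOXL2 at 3 counts or fewer in every library. The 3 of 9 sperm markers in the table summed to at most 1.16 CPM in any library. The 3 of 5 blood markers in the table summed to 0.238 to 0.573 CPM in con-2c, 0.508 to 0.810 in si-4c, 1.92 to 2.63 in con-4c and 0.622 to 0.804 in si-2c. The oocyte sum, with or without BTG4, was higher in con-2c and si-4c, where HSPE1 was high, and the cumulus sum in con-4c and si-2c, where HSPA8 and HSPA4 were high. Within the cumulus list CYP19A1 went the other way in the controls, at 0.605 to 0.802 CPM in con-2c, compared with 0.198 to 0.228 CPM in con-4c. COL1A1 was at 1.23 to 2.18 CPM in con-4c, 0.622 to 0.991 in si-2c and at most 0.327 in con-2c and si-4c. STAR was highest in replicate 2 of si-2c (1.98 CPM) and replicate 3 of con-2c (1.23 CPM). The cumulus sum, at most 4.80 CPM, was not read without single members. The part of these cells in the results was not tested.

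Of the 9 genes, HSPA8, HSPA4 and HSP90AB1 were higher in con-4c than in con-2c and HSPE1 was lower, and the same 4 genes passed the test in the same directions in si-2c versus con-2c. In si-4c, HSPA8 and HSPA4 were lower and HSPE1 was higher than in con-4c. HSPA5, HSPA9, HSPD1, HSF1 and HSF2 did not pass the test in these comparisons with TMM factors, while HSPA5, HSPA9 and HSPD1 passed in some of them with library totals or a stricter filter. Because amplified RNA of pooled embryos was measured, fewer cells and less RNA per cell cannot be told apart. The labels do not say whether the 3 libraries of a group came from separate cultures, so p-values measure the spread between these libraries only.

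**Figure D1:**
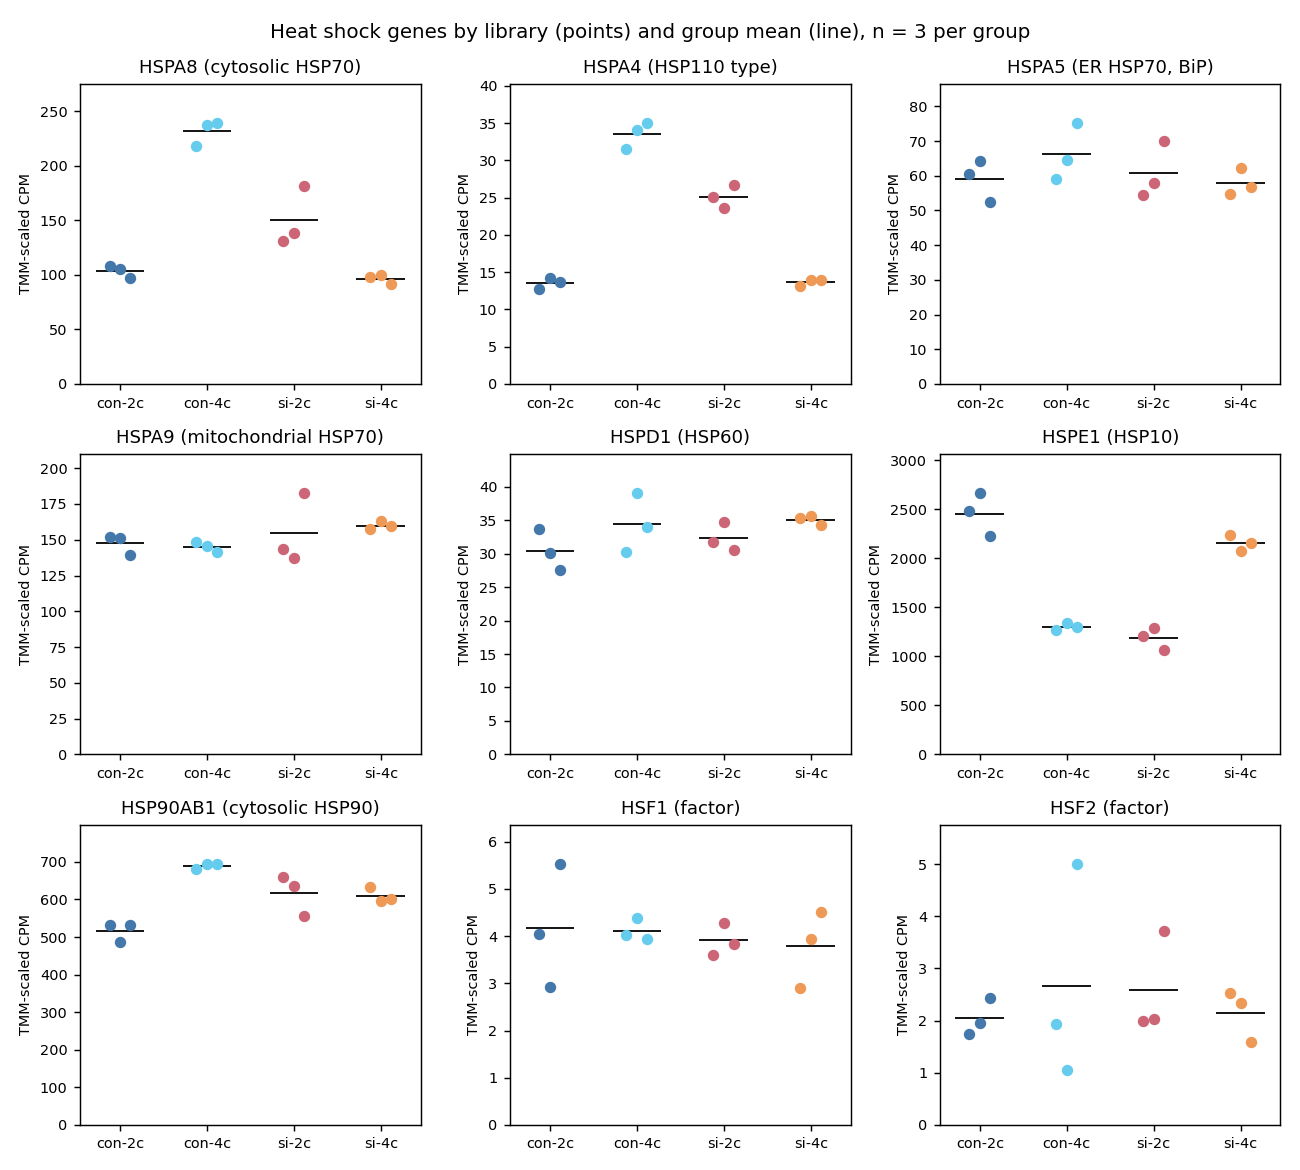
Level of each of the 9 genes in each of the 12 libraries, in TMM-scaled CPM on an axis of its own for each gene, with the libraries grouped by title and the group mean drawn as a line. HSPA8 and HSPA4 are high in con-4c, intermediate in si-2c and low in con-2c and si-4c, while HSPE1 is high in con-2c and si-4c and low in con-4c and si-2c.

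HSPA8 (ENSSSCG00000015140, chr9:49982278-49986760 in Sscrofa11.1 by RefSeq) encodes HSC70, the constitutive cytosolic HSP70. Its level was 108, 105 and 97.3 CPM in con-2c, compared with 218, 237 and 239 CPM in con-4c. It was 131, 138 and 181 CPM in si-2c, compared with 97.7, 100.1 and 91.2 CPM in si-4c. The libraries of con-4c lay above all others, those of si-2c lay between con-4c and con-2c without overlap, and those of si-4c overlapped con-2c. Replicate 3 of si-2c stood above the other libraries of its group. HSPA8 was 2.23-fold higher in con-4c than in con-2c, a log2 fold change of 1.16 (SE 0.11, edgeR adjusted p = 1.94e-07). In si-2c it was 1.45-fold higher than in con-2c, a log2 fold change of 0.53 (SE 0.11, adjusted p = 0.000925), which was 0.37 (SE 0.08) without replicate 3 of si-2c and still passed the test. In si-4c it was at 41.6% of con-4c, a log2 fold change of -1.26 (SE 0.11, adjusted p = 6.79e-08). Pseudogenes and other HSP70 genes resemble HSPA8 closely, and since the handling of reads that match several genes is not given in the sources used here, its level is uncertain to that extent.

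HSPA4 (ENSSSCG00000014292, chr2:135345724-135391112) encodes an HSP110-type protein that speeds nucleotide exchange on HSP70. Its level was 12.8, 14.3 and 13.6 CPM in con-2c, 13.1, 14.0 and 13.9 CPM in si-4c, 31.5, 34.1 and 35.0 CPM in con-4c and 25.0, 23.5 and 26.7 CPM in si-2c. The order of the groups was that of HSPA8, with con-4c above si-2c, si-2c above both of the others, and con-2c and si-4c overlapping. The log2 fold change was 1.31 (SE 0.10, adjusted p = 4.06e-08) in con-4c and 0.89 (SE 0.10, adjusted p = 5.62e-06) in si-2c, both versus con-2c. In si-4c HSPA4 was at 40.8% of con-4c, a log2 fold change of -1.29 (SE 0.10, adjusted p = 4.36e-08).

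HSPA5 (ENSSSCG00000005601, chr1:265930044-265934959) encodes BiP, the HSP70 of the endoplasmic reticulum and a sensor of the unfolded protein response. Its level was 60.6, 64.4 and 52.4 CPM in con-2c, 54.9, 62.3 and 56.9 CPM in si-4c, 59.0, 64.5 and 75.3 CPM in con-4c and 54.4, 58.0 and 70.1 CPM in si-2c. The groups overlapped throughout. The log2 fold changes of HSPA5 were 0.16 (SE 0.12, adjusted p = 0.302) in con-4c and 0.04 (SE 0.12, adjusted p = 0.848) in si-2c versus con-2c, and -0.19 (SE 0.12, adjusted p = 0.217) in si-4c versus con-4c. With library totals all 3 passed the test, at 0.44 (adjusted p = 0.00775), 0.45 (adjusted p = 0.00733) and -0.45 (adjusted p = 0.00712), and the third also passed with a filter of 10 CPM in 3 libraries (-0.30, adjusted p = 0.0247). The first value moved with single libraries, being 0.054 without replicate 3 of con-2c, 0.059 without replicate 3 of con-4c and at most 0.24 when any other library was left out. The third was -0.087 without replicate 3 of con-4c, and the second turned negative without replicate 3 of con-2c (-0.037) or of si-2c (-0.075).

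HSPA9 (ENSSSCG00000014338, chr2:140515239-140532164) encodes mortalin, the mitochondrial HSP70 that pulls imported proteins into the matrix. Its level was 152, 151 and 139 CPM in con-2c, 158, 163 and 159 CPM in si-4c, 149, 146 and 142 CPM in con-4c and 144, 137 and 182 CPM in si-2c. Replicate 3 of si-2c held the highest value, and the libraries of si-4c lay above those of both control groups. The log2 fold changes were -0.02 (SE 0.09, adjusted p = 0.889) and 0.07 (SE 0.09, adjusted p = 0.661) in con-4c and si-2c versus con-2c, and 0.14 (SE 0.09, adjusted p = 0.274) in si-4c versus con-4c. The first of these turned positive under 4 of the alternative settings and the second turned negative, to -0.07, without replicate 3 of si-2c. Under library totals the second was 0.47 (adjusted p = 0.00205) and passed the test.

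Set beside each other within a library, HSPA8 and HSPA5 changed unequally. The ratio of HSPA8 to HSPA5 counts was 1.76 ± 0.11 in con-2c, 1.66 ± 0.10 in si-4c, 3.52 ± 0.29 in con-4c and 2.46 ± 0.11 in si-2c (mean ± SD, n = 3). A ratio within a library shows unequal change of the genes and does not depend on the scaling of the library.

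HSPE1 (ENSSSCG00000016078, chr15:101374019-101376146) encodes HSP10, the lid of the mitochondrial folding chamber, and moved the other way. Its level was 2479.5, 2661 and 2221 CPM in con-2c, compared with 1267, 1342 and 1300.4 CPM in con-4c. It was 1208, 1289 and 1066 CPM in si-2c, compared with 2233, 2070.1 and 2158 CPM in si-4c. All libraries of con-2c and si-4c lay above all libraries of con-4c and si-2c, and within each of these pairs the groups overlapped. The log2 fold change was -0.91 (SE 0.08, adjusted p = 2.28e-07) in con-4c and -1.05 (SE 0.08, adjusted p = 8.49e-08) in si-2c versus con-2c. In si-2c it became -0.99 without replicate 2 of con-2c and -0.98 without replicate 3 of si-2c, so that the fold then fell short of a log2 fold change of 1 while the test was passed. In si-4c HSPE1 was 1.65-fold higher than in con-4c, a log2 fold change of 0.73 (SE 0.08, adjusted p = 3.27e-06). Processed pseudogenes of HSPE1 are common in mammals, so its level carries the same uncertainty as that of HSPA8.

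HSPD1 (ENSSSCG00000016077, chr15:101360355-101373498) encodes HSP60, which forms the chamber that HSP10 closes. Its level was 33.7, 30.1 and 27.6 CPM in con-2c, 35.4, 35.6 and 34.2 CPM in si-4c, 30.3, 39.0 and 33.9 CPM in con-4c and 31.8, 34.7 and 30.5 CPM in si-2c. The control groups overlapped each other and si-2c. The log2 fold changes were 0.18 (SE 0.11, adjusted p = 0.234) in con-4c and 0.09 (SE 0.11, adjusted p = 0.623) in si-2c versus con-2c, and 0.03 (SE 0.11, adjusted p = 0.883) in si-4c versus con-4c, and the last of these changed sign under several scalings and filters. The first passed the test with library totals (0.45, adjusted p = 0.00266) and with a filter of 10 CPM in 3 libraries (0.27, adjusted p = 0.0434), and the second with library totals (0.49, adjusted p = 0.00157). Leaving out 1 library at a time gave 0.072 (without replicate 2 of con-4c) to 0.26 for the first and 0.023 (without replicate 3 of con-2c) to 0.16 for the second.

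HSPD1 and HSPE1 are neighbours on chromosome 15, with 520 bases between the RefSeq spans, and their products work together. HSPE1 passed the test in each of the main comparisons and, with TMM factors and the same filter, HSPD1 in none of them. The ratio of HSPE1 to HSPD1 counts, a measure chosen after the values were seen, was 73.6, 88.5 and 80.5 in con-2c, 63.1, 58.2 and 63.1 in si-4c, 41.8, 34.4 and 38.3 in con-4c and 38.0, 37.1 and 35.0 in si-2c. Because the transcripts differ in length, the size of the ratio has no meaning by itself, and only its change between groups can be read. On the log2 scale the ratio changed by -1.08 in con-4c and by -1.14 in si-2c versus con-2c, and by 0.69 in si-4c versus con-4c. Between si-4c and con-2c it differed by -0.39, with no overlap between the libraries. Each of these had an exact two-sided permutation p = 0.1, the smallest that 3 libraries against 3 can give. Between si-2c and con-4c the difference was -0.05 (exact two-sided permutation p = 0.6).

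**Figure D2:**
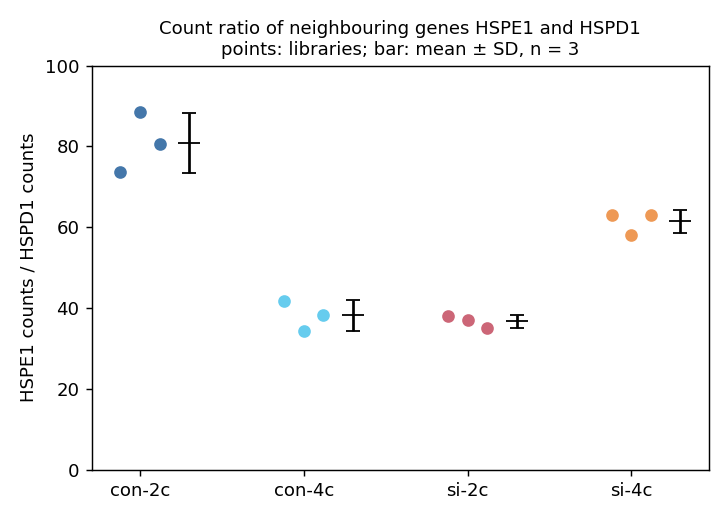
Ratio of HSPE1 counts to HSPD1 counts in each library (vertical axis, no unit) in each of the 4 groups, with group means as lines. The libraries of con-2c lie between 73.6 and 88.5 and those of si-4c between 58.2 and 63.1, above all libraries of con-4c and si-2c.

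HSP90AB1 (ENSSSCG00000001701, chr7:39237299-39250479) encodes the constitutive cytosolic HSP90, which completes the folding of kinases and hormone receptors. Its level was 531, 486 and 533 CPM in con-2c, 632, 597 and 601 CPM in si-4c, 681.5, 695 and 694 CPM in con-4c and 661, 636 and 555 CPM in si-2c. The libraries of con-4c lay above all others, those of con-2c lay below all others, and si-2c and si-4c overlapped. Replicate 3 of si-2c was the lowest library of its group, opposite to its place for HSPA8 and HSPA9. The log2 fold change was 0.42 (SE 0.08, adjusted p = 0.000362) in con-4c and 0.26 (SE 0.08, adjusted p = 0.0178) in si-2c versus con-2c. The call in si-2c was lost with only the groups compared in the fit (0.26, adjusted p = 0.0748), without replicate 2 of con-2c (0.21, adjusted p = 0.0858), without replicate 1 of si-2c (0.20, adjusted p = 0.0959) and without replicate 2 of si-2c (0.23, adjusted p = 0.0657). In si-4c the log2 fold change versus con-4c was -0.18 (SE 0.08, adjusted p = 0.0794), short of the threshold. It passed with RLE factors (-0.22, adjusted p = 0.0325), library totals (-0.44, adjusted p = 0.00038), a filter of 10 CPM in 3 libraries (-0.29, adjusted p = 0.00579), DESeq2 (-0.22, adjusted p = 0.00564) and only the groups compared (-0.19, adjusted p = 0.00857), and without replicate 3 of si-2c (adjusted p = 0.0318). Pseudogenes of HSP90AB1 add the same uncertainty as for HSPA8.

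HSF1 (ENSSSCG00000005917, chr4:463531-486483), the main inducer of heat shock genes, was at 4.04, 2.91 and 5.53 CPM in con-2c, compared with 4.02, 4.37 and 3.93 CPM in con-4c. It was at 3.61, 4.29 and 3.84 CPM in si-2c, compared with 2.91, 3.93 and 4.51 CPM in si-4c, from 97 to 180 counts a library. The groups overlapped, and the log2 fold changes were -0.02 (SE 0.25, adjusted p = 0.966) and -0.09 (SE 0.25, adjusted p = 0.844) in con-4c and si-2c versus con-2c, and -0.12 (SE 0.25, adjusted p = 0.76) in si-4c versus con-4c. HSF2 (ENSSSCG00000004238, chr1:40147267-40180308), a factor active in gametogenesis and development, was at 1.75, 1.96 and 2.43 CPM in con-2c, 2.52, 2.34 and 1.58 CPM in si-4c, 1.94, 1.06 and 5.01 CPM in con-4c and 2.00, 2.04 and 3.71 CPM in si-2c, from 32 to 173 counts a library. Replicate 3 of con-4c and replicate 3 of si-2c were each the highest of their group for HSF2. Its log2 fold changes were 0.38 (SE 0.45, adjusted p = 0.557), 0.34 (SE 0.44, adjusted p = 0.639) and -0.31 (SE 0.44, adjusted p = 0.634) in the same order. The standard errors of HSF2 exceeded each of its log2 fold changes. Its coefficient of variation between libraries was 77.6% for con-4c and 37.9% for si-2c, and the sign of its change turned without replicate 3 of con-4c (-0.45 versus con-2c) or of si-2c (-0.02 versus con-2c).

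**Figure D3:**
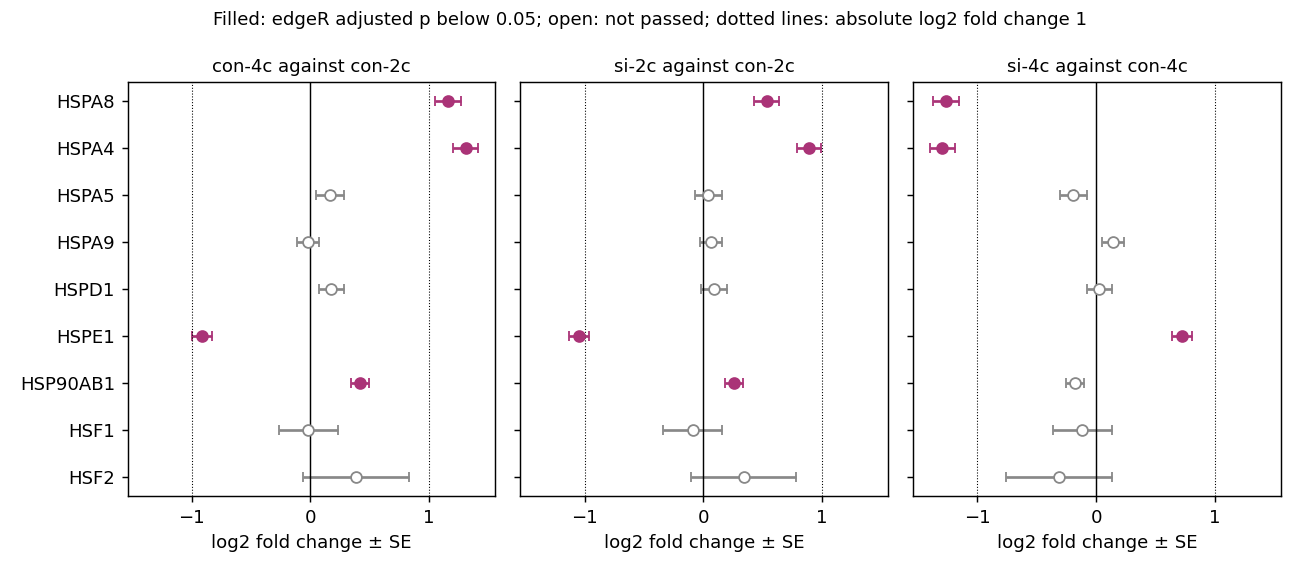
Log2 fold change of each of the 9 genes (horizontal axis) with its standard error, in con-4c versus con-2c, si-2c versus con-2c and si-4c versus con-4c, from the edgeR fit over all 12 libraries, with filled points for an adjusted p below 0.05, open points for the rest and dotted lines at an absolute value of 1. HSPA8 and HSPA4 lie to the right of 0 in the comparisons with con-2c and at -1.26 and -1.29 in si-4c versus con-4c, and HSPE1 lies on the opposite side of 0 in each.

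The counts of genes that passed were read against the share of all genes tested. In con-4c versus con-2c, 3 of the 9 were higher, beside 20.7% of all genes, and 1 was lower, beside 15.1%. A log2 fold change of at least 1 was also reached by 2 of them (HSPA8 and HSPA4), beside 17.7% of all genes. The median log2 fold change was 0.18 over the 9 genes and 0.11 over all genes tested. In si-2c versus con-2c, 3 of the 9 were higher, beside 16.6%, and 1 was lower, beside 12.3%, and that gene, HSPE1, was the 1 that reached the fold, beside 12.5%. With library totals HSPE1 was at -0.65 (adjusted p = 6.31e-07) and HSPA4 reached the fold instead, at 1.29 (adjusted p = 4.24e-07). The medians were 0.09 over the 9 genes and 0.12 over all genes. In si-4c versus con-4c, 1 of the 9 was higher, beside 15.1%, and 2 were lower, beside 21.7%, and these 2 (HSPA8 and HSPA4) reached the fold, beside 19.0%. The medians were -0.18 and -0.11. The counts of 9 genes were not tested against these shares, and nothing particular to the 9 genes is read from them. The comparisons share control libraries, so their counts are not independent.

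Between the si groups, HSPA8 was lower in si-4c than in si-2c by a log2 fold change of -0.64 (SE 0.11, adjusted p = 0.000188), and HSPA4 by -0.88 (SE 0.10, adjusted p = 6.39e-06). HSPE1 was higher by 0.86 (SE 0.08, adjusted p = 8.36e-07), and HSP90AB1 differed by -0.02 (SE 0.08, adjusted p = 0.908). Each gene that passed the test thus differed in the opposite direction to con-4c versus con-2c. Of the 9, 1 was higher, beside 12.1% of all genes, and 2 were lower, beside 16.9%. None of the 9 passed with a log2 fold change of at least 1 in edgeR, beside 13.3% of all genes. DESeq2 gave 0 as well, as did an unadjusted p below 0.05 in edgeR, while library totals in place of TMM factors gave 2. The medians were -0.05 over the 9 genes and -0.13 over all genes.

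In si-4c versus con-2c, edgeR called none of the 9 genes higher or lower, beside 0.106% and 0.567% of all genes, and none with the fold, beside 0.333%. At an unadjusted p below 0.05, edgeR gave 1 higher gene, HSP90AB1 (log2 fold change 0.24, SE 0.08, adjusted p = 0.215), and 1 lower gene, HSPE1 (-0.19, SE 0.08, adjusted p = 0.411). DESeq2 passed HSP90AB1 alone, at 0.23 (adjusted p = 0.032). None of the 9 reached the fold by DESeq2 or by the unadjusted p. HSPA8 differed by -0.11 (SE 0.11, adjusted p = 0.819) and HSPA4 by 0.01 (SE 0.10, adjusted p = 1), and the medians were 0.01 over the 9 genes and -0.002 over all genes.

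In si-2c versus con-4c, HSPA8 was lower by a log2 fold change of -0.63 (SE 0.10, adjusted p = 0.00106) and HSPA4 by -0.42 (SE 0.10, adjusted p = 0.0169). HSPE1 differed by -0.13 (SE 0.08, adjusted p = 0.455) and HSP90AB1 by -0.16 (SE 0.08, adjusted p = 0.26). So 2 of the 9 were lower, beside 5.32% of all genes. None was higher, beside 2.22%, and none reached the fold, beside 1.79%, in edgeR, in DESeq2 or at an unadjusted p below 0.05 in edgeR. DESeq2 also passed HSP90AB1 as lower. The HSPA4 call was lost without replicate 2 or replicate 3 of con-4c and without replicate 1 or replicate 2 of si-2c, with adjusted p between 0.06 and 0.0902, and with library totals (-0.29, adjusted p = 0.153). The medians were -0.12 over the 9 genes and -0.02 over all genes.

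The interaction is the difference of si-4c from si-2c less the difference of con-4c from con-2c, and asks whether the change between titles differs with si-CCNB2. It was -1.80 (SE 0.15, adjusted p = 3.49e-08) for HSPA8, -2.18 (SE 0.15, adjusted p = 2.71e-09) for HSPA4 and 1.77 (SE 0.12, adjusted p = 2.7e-09) for HSPE1. For HSP90AB1 it was -0.43 (SE 0.11, adjusted p = 0.00339). The interaction takes the stage titles as given, and whether those of the si libraries are right was not tested. An effect of si-CCNB2 and an exchange of these titles cannot be told apart by it. Of the 9, 1 had a positive interaction, beside 18.2% of all genes, and 3 a negative one, beside 27.3%, and 3 reached an absolute log2 of 1, beside 32.4%. The medians were -0.23 over the 9 genes and -0.23 over all genes. The other 5 genes did not pass the test of interaction, with values from -0.65 (HSF2) to 0.07 (HSPA9). They did not pass either in si-4c versus si-2c (-0.27 for HSF2 to 0.12 for HSPD1), si-4c versus con-2c (-0.14 for HSF1 to 0.20 for HSPD1) or si-2c versus con-4c (-0.12 for HSPA5 to 0.09 for HSPA9).

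Scaling shifted all genes together. With library totals in place of TMM factors, the median log2 fold change of all genes went from 0.11 to 0.38 in con-4c versus con-2c, from 0.12 to 0.52 in si-2c versus con-2c and from -0.11 to -0.37 in si-4c versus con-4c. The share of called genes that were higher went from 81.6% to 93.4%, from 85.5% to 98.1% and from 16.5% to 6.41%. Measured from the median over all genes, HSPA8 was at 1.05 and HSPA4 at 1.20 in con-4c versus con-2c under both scalings, and HSPE1 was at -1.02 under both. By the same measure HSP90AB1 was at 0.31 under both. A change of scaling moves every gene by nearly the same amount, so this agreement follows from subtracting the median and tests nothing. Before that shift was taken off, HSPE1 under library totals was at -0.64, -0.65 and 0.47 in these comparisons. HSPA5, HSPA9 and HSPD1 passed the test in si-2c versus con-2c only under library totals among the scalings, and relative to the median they were then at -0.07, -0.05 and -0.03. The same genes passed the test of interaction under library totals, at -0.89, -0.59 and -0.72, beside a median of -0.88 over all genes.

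For each gene, the tested gene with the most similar pattern was found by the root mean square difference of log2 CPM centred on the gene mean over the 12 libraries, among 12051 genes, as a description. For HSPA8 it was CYB5R4, with a difference of 0.10 on the log2 scale beside an SD of 0.51 for HSPA8 itself. SBNO1 was nearest to HSPA4 (0.08, beside an SD of 0.57) and PSMG1, which helps assemble the proteasome, was nearest to HSPE1 (0.08, beside 0.46). PSMG1 was at 327 CPM in con-2c, 309 in si-4c, 175 in con-4c and 170.3 in si-2c. TAF7, a subunit of the general transcription factor TFIID, was nearest to HSP90AB1 (0.07, beside 0.16). HSPA5, HSPA9 and HSPD1 were nearest to MYO6 (0.09), SLC8A1 (0.05) and APEX1 (0.07), and HSF1 and HSF2, with few counts, to ALG9 (0.16) and PTGES3L (0.27).

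The wider chaperone network was read from 9 lists that held 144 other genes, of which 126 were tested. In con-4c versus con-2c 30 of these were higher (23.8%) and 28 lower (22.2%), in si-2c versus con-2c 17 (13.5%) and 30 (23.8%), and in si-4c versus con-4c 30 (23.8%) and 30 (23.8%). Of all genes, 20.7% were higher and 15.1% lower in the first of these, 16.6% and 12.3% in the second and 15.1% and 21.7% in the third. The median log2 fold changes of the 126 genes were -0.01, -0.04 and 0.07, beside 0.11, 0.12 and -0.11 over all genes. In si-4c versus con-2c edgeR passed 0 of the 126, beside 0.106% of all genes higher and 0.567% lower. At an unadjusted p below 0.05 edgeR gave 11 higher and 13 lower, and DESeq2 passed 3, without a share of all genes beside them. The interaction was positive for 38 (30.2%) and negative for 34 (27.0%), beside 18.2% and 27.3% of all genes. These shares were not tested against each other, and nothing particular to the lists is read from them.

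Among the other HSP90 proteins and the co-chaperones of HSP90, 4 of 16 tested genes (25.0%) were higher and 5 (31.2%) lower in con-4c than con-2c, beside 20.7% and 15.1% of all genes. The numbers were 4 and 5 in si-2c versus con-2c, beside 16.6% and 12.3%, and 6 and 5 in si-4c versus con-4c, beside 15.1% and 21.7%. PTGES3, the p23 co-chaperone that holds HSP90 closed on its client, rose from 14.9 CPM ± 1.79 in con-2c to 68.3 CPM ± 3.55 in con-4c, a log2 fold change of 2.197 (SE 0.11, adjusted p = 1.56e-10). It was at 34.2 CPM ± 1.84 in si-2c, 1.20 above con-2c (SE 0.11, adjusted p = 4.34e-07), and at 14.5 CPM ± 1.61 in si-4c, -2.24 versus con-4c (SE 0.11, adjusted p = 1.2e-10). NUDC, a protein that binds HSP90 and the dynein complex, was at 4.82 CPM ± 0.685 in con-2c, 29.3 CPM ± 3.98 in con-4c, 2.96 CPM ± 0.928 in si-4c and 13.4 CPM ± 0.159 in si-2c. PPID, the cyclophilin of the HSP90 complex, had the opposite pattern, at 36.3 CPM ± 2.82, 17.5 CPM ± 2.00, 37.0 CPM ± 1.35 and 15.9 CPM ± 2.46 in con-2c, con-4c, si-4c and si-2c. STIP1, which links HSP70 to HSP90 and was named after its values were seen, had log2 fold changes of 0.86 (adjusted p = 1.87e-05) in con-4c and 0.43 (adjusted p = 0.01) in si-2c versus con-2c, and -0.62 (adjusted p = 0.000423) in si-4c versus con-4c, where the second was lost without replicate 2 of con-2c (0.32, adjusted p = 0.065).

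Of the 35 J proteins tested, which drive the ATP cycle of HSP70, 7 (20.0%) were higher and 9 (25.7%) lower in con-4c than con-2c, beside 20.7% and 15.1% of all genes. In si-2c versus con-2c these were 4 (11.4%) and 9 (25.7%), beside 16.6% and 12.3%, and in si-4c versus con-4c 10 (28.6%) and 5 (14.3%), beside 15.1% and 21.7%. DNAJC19 of the mitochondrial import motor was at 49.2 CPM ± 2.82 in con-2c, 17.1 CPM ± 1.81 in con-4c, 40.7 CPM ± 3.32 in si-4c and 20.1 CPM ± 1.20 in si-2c. Its log2 fold change was -1.53 (SE 0.11, adjusted p = 7.87e-09) in con-4c versus con-2c and 1.25 (SE 0.11, adjusted p = 8.43e-08) in si-4c versus con-4c. DNAJC2, a J protein at the ribosome, and DNAJB4, in the cytosol, had the same pattern, DNAJC2 at 155.5, 60.9, 154.9 and 76.2 CPM and DNAJB4 at 147.9, 71.0, 160.0 and 70.8 CPM in con-2c, con-4c, si-4c and si-2c. DNAJB1, a J protein inducible by heat that was named after its values were seen, had log2 fold changes of 0.65 (adjusted p = 3.47e-06) and 0.19 (adjusted p = 0.0641) in con-4c and si-2c versus con-2c, and -0.70 (adjusted p = 1.4e-06) in si-4c versus con-4c. The second of these passed the test under RLE size factors, under library totals, with the stricter filter, in DESeq2 and without replicate 3 of con-2c (0.24, adjusted p = 0.0455).

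The cytosolic chaperonin TRiC and prefoldin, which fold actin and tubulin, had all 14 listed genes tested. Of these, 2 (14.3%) were higher and 6 (42.9%) lower in con-4c than con-2c, beside 20.7% and 15.1% of all genes. In si-2c versus con-2c these were 1 (7.14%) and 7 (50%), beside 16.6% and 12.3%, and in si-4c versus con-4c 6 (42.9%) and 3 (21.4%), beside 15.1% and 21.7%. The medians were -0.28, -0.26 and 0.22 over the 14 genes and 0.11, 0.12 and -0.11 over all genes. Of the prefoldin subunits, PFDN4 was at 110.2 CPM ± 9.21 in con-2c, 48.8 CPM ± 4.32 in con-4c, 96.3 CPM ± 4.13 in si-4c and 48.5 CPM ± 0.365 in si-2c. PFDN1 was at 119.4 CPM ± 6.80, 56.0 CPM ± 1.98, 119.3 CPM ± 10.7 and 69.5 CPM ± 6.57 in that order. Their log2 fold changes in con-4c versus con-2c were -1.17 (adjusted p = 1.78e-08) and -1.09 (adjusted p = 6.68e-08).

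Of the 20 genes of endoplasmic reticulum folding and the unfolded protein response, 9 (45.0%) were higher and 3 (15.0%) lower in con-4c than con-2c, beside 20.7% and 15.1% of all genes. In si-2c versus con-2c these were 4 (20.0%) and 3 (15.0%), beside 16.6% and 12.3%, and in si-4c versus con-4c 2 (10%) and 7 (35.0%), beside 15.1% and 21.7%. The transcription factor DDIT3 (CHOP) was at 56.8 CPM ± 2.84 in con-2c, 142.7 CPM ± 6.98 in con-4c, 60.5 CPM ± 3.66 in si-4c and 76.5 CPM ± 16.4 in si-2c. ATF4, which activates DDIT3, was at 8.04 CPM ± 1.67, 19.5 CPM ± 2.26, 9.12 CPM ± 0.217 and 13.3 CPM ± 3.41 in that order. Their log2 fold changes in con-4c versus con-2c were 1.33 (SE 0.12, adjusted p = 2.39e-07) and 1.28 (SE 0.19, adjusted p = 3.91e-05).

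The smaller lists are read beside the same shares of all genes, 20.7% higher and 15.1% lower in con-4c versus con-2c, 16.6% and 12.3% in si-2c versus con-2c, and 15.1% and 21.7% in si-4c versus con-4c. Of 8 tested HSP70 and HSP110 genes, 2 were higher and 2 lower in the first, 2 and 1 in the second and 3 and 2 in the third. Of 11 HSP70 co-chaperones, edgeR passed 1 as higher and 0 as lower in the first (1 lower at an unadjusted p below 0.05, and 0 by DESeq2), 1 and 1 in the second and 1 and 2 in the third. Of 7 small heat shock proteins, edgeR passed 1 as higher and 0 as lower in the first, 0 and 0 in the second and 0 and 2 in the third, and each count of 0 was also 0 at an unadjusted p below 0.05 and by DESeq2. Of 8 regulators of the heat shock factors, 3 were higher and 2 lower in the first, 1 and 2 in the second and 1 and 3 in the third. Among these, EP300, an acetyltransferase that acts on HSF1, was at 13.7 CPM ± 4.01 in con-2c, 32.4 CPM ± 4.56 in con-4c, 15.4 CPM ± 0.198 in si-4c and 22.0 CPM ± 1.73 in si-2c, a log2 fold change of 1.25 (SE 0.17, adjusted p = 2.14e-05) in con-4c versus con-2c. Of 7 genes of mitochondrial proteases and the import motor, 1 was higher and 1 lower in con-4c than con-2c, 0 and 2 in si-2c versus con-2c and 1 and 1 in si-4c versus con-4c, where the 0 was also 0 at an unadjusted p below 0.05 and by DESeq2.

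HSPA1L, an HSP70 gene of the same family, was named after its values were seen. Its counts were 0, 23 and 6 in con-2c, 0, 4 and 0 in si-4c, 201, 159 and 144 in con-4c and 192, 165 and 211 in si-2c. All libraries of con-4c and si-2c lay above all libraries of con-2c and si-4c. It passed the test in con-4c versus con-2c (log2 fold change 4.22, SE 0.64, adjusted p = 6.34e-05), in si-2c versus con-2c (3.93, SE 0.64, adjusted p = 0.000169) and in si-4c versus con-4c (adjusted p = 4.49e-06). In RefSeq, its span on chromosome 7 (chr7:23909960-23938678) contains that of HSP70.2 (chr7:23925929-23927854), which carries the synonyms HSPA1A and HSPA1B and names the inducible HSP70, so reads of these genes could not be told apart here.

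**Figure D4:**
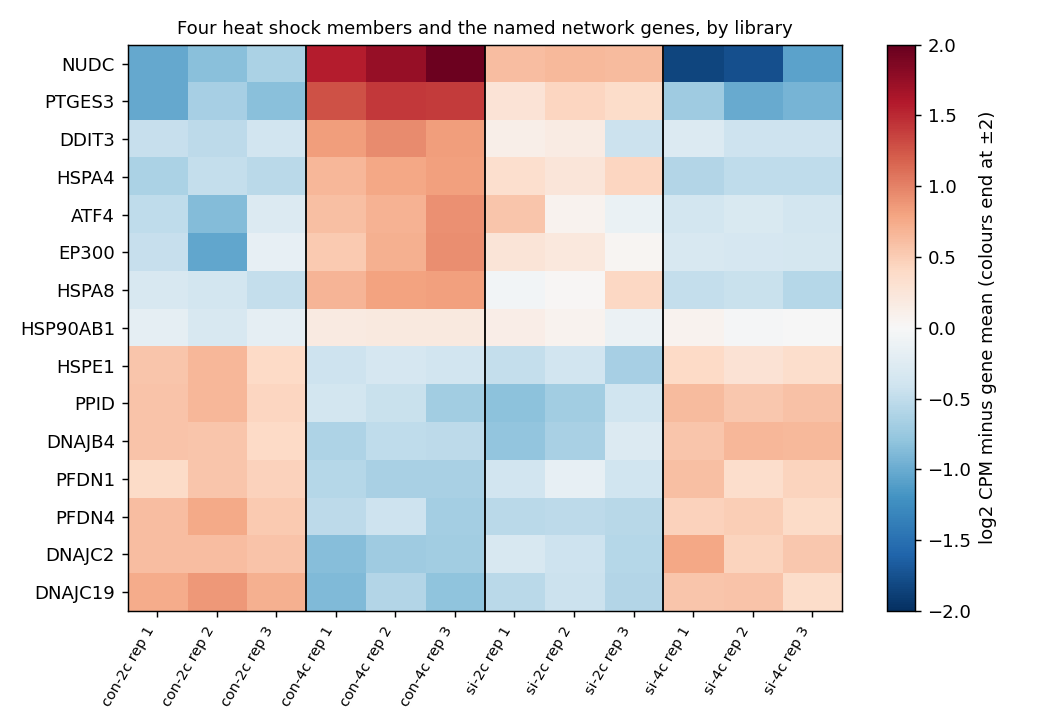
Log2 CPM of HSPA8, HSPA4, HSP90AB1 and HSPE1 and of the named chaperone network genes in the 12 libraries (columns, grouped by title), each row centred on its mean over the libraries, with the colour scale in log2 units. HSPA8, HSPA4, PTGES3 and NUDC are high in con-4c and low in con-2c and si-4c, and HSPE1, PPID, DNAJC19 and PFDN4 are low in con-4c and si-2c.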

How the data were processed

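The authors deposited whole-number counts of each Ensembl gene, without normalization, for 12 SMART-seq libraries. The submitters' processing notes name cutadapt 1.9, HISAT2 2.2.1, StringTie 2.1.6, DESeq2, edgeR and the build Sscrofa11.1, without roles. The counting program, annotation release, strand and handling of multiple matches are not given in the sources used here. Groups were taken from titles. Symbols were those of the table, where 41 symbols sat on more than 1 identifier; coordinates are from RefSeq (Sscrofa11.1). No reference sequence was used. The members and lists were chosen with earlier results of these data known.

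The test was run on these counts with edgeR 4.0.16 in R 4.3.3 (filterByExpr, TMM factors 0.852 to 1.21, 1 quasi-likelihood model of 4 group means). The biological coefficient of variation was 27.3%. Standard errors were the log2 fold change over the square root of F. P-values were adjusted by Benjamini-Hochberg over all 17995 genes, with a threshold of 0.05, and a log2 fold change of 1 was counted separately. Of the network lists, up to 5 genes higher and 5 lower with the smallest p were named per main comparison, if the groups did not overlap and the higher one had a mean of at least 10 CPM. The nearest gene by pattern was found on log2 CPM (prior count 2). DESeq2 1.42.0, RLE size factors, library totals, no filter, a filter of 10 CPM in 3 libraries, fits of only the groups compared, a replicate block and leaving out each library were the alternatives. The scripts were tested on simulated data. Libraries of a group differed beyond sampling noise (chi-square over degrees of freedom 7.27 to 38.7), so none was counted as a repeat deposit of another, though this does not show that they came from separate pools. Amplified reads carried no molecular identifiers, so the spread between libraries sets the precision.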

Additional observations from a re-analysis of the deposited data

Results flagged for a closer look

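The difference between si-CCNB2 and control libraries was not the same under the titles 4c and 2c for 4 of the 9 genes, by the interaction in edgeR over 3 libraries a group. HSPA4 had the most negative value, -2.18 on the log2 scale (SE 0.15, adjusted p = 2.71e-09), with si above control under 2c and below it under 4c in every library. HSPA8 had -1.80 (SE 0.15, adjusted p = 3.49e-08), with the same directions. HSPE1 had 1.77 (SE 0.12, adjusted p = 2.7e-09), with si below control under 2c and above it under 4c. HSP90AB1 had -0.43 (SE 0.11, adjusted p = 0.00339), with si above control under 2c and below it under 4c. For this gene the edgeR difference under 4c did not pass the test (-0.18, adjusted p = 0.0794). The difference under 2c (0.26, adjusted p = 0.0178) passed, but that call was lost in several fits. Of all genes tested, 18.2% had a positive and 27.3% a negative interaction, so these 4 genes share their place with many others. These values take the stage titles as given, though title and tissue label named different stages in every library. An effect of si-CCNB2 and an exchange of the si titles cannot be told apart here.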

How the results depend on the processing

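The members' 20 values that passed the test kept their direction under all 136 alternatives and all 240 refits that left out 1 library. The call was lost in 2 alternatives (HSP90AB1 in si-2c versus con-2c with only the groups compared, 0.26, adjusted p = 0.0748; HSPA4 in si-2c versus con-4c with library totals, -0.29, adjusted p = 0.153) and in 7 refits. Where a setting moved a value, the cause was not tested. The interaction was not run with only the groups compared, which would drop groups it needs.

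With library totals, HSPA5 gave 0.44 in con-4c versus con-2c, 0.45 in si-2c versus con-2c and -0.45 in si-4c versus con-4c, HSPD1 0.45, 0.49 and -0.23, HSPA9 0.25, 0.47 and -0.12, HSP90AB1 -0.44 in si-4c versus con-4c and -0.40 in si-4c versus si-2c, and HSF1 0.24 and 0.29 in con-4c and si-2c versus con-2c. Members passed then numbered 6 in con-4c versus con-2c, 7 in si-2c versus con-2c, 5 in si-4c versus con-4c, 6 in si-4c versus si-2c, 1 in si-2c versus con-4c and 7 in the interaction, and 2 had the fold in si-4c versus si-2c.

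With RLE factors, HSPA9 was 0.010 and HSF1 0.018 in con-4c versus con-2c, and HSPD1 -0.014 and HSP90AB1 -0.22 in si-4c versus con-4c. With DESeq2 these were 0.007, 0.015, -0.011 and -0.22, HSP90AB1 was 0.23 in si-4c versus con-2c and -0.18 in si-2c versus con-4c, and 1 member passed in si-4c versus con-2c. With at least 10 CPM in 3 libraries, HSPA9 was 0.069 and HSPD1 0.27 in con-4c versus con-2c, HSPA5 -0.30, HSPD1 -0.081 and HSP90AB1 -0.29 in si-4c versus con-4c, and HSPA4 -0.007 in si-4c versus con-2c. Members passed were 5 in si-4c versus con-4c and members with the fold 0 in si-2c versus con-2c. HSP90AB1 was -0.19 in si-4c versus con-4c with only the groups compared.

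Network genes with the fold numbered 9, 5, 8 and 4 in con-4c versus con-2c, si-2c versus con-2c, si-4c versus con-4c and si-4c versus si-2c, and 20 in the interaction, under the 10 CPM filter, which tests fewer genes, against 21, 13, 22, 13 and 40. The latter are numbers of 126 genes, beside 17.7%, 12.5%, 19.0%, 13.3% and 32.4% of all genes in the main fit. In si-2c versus con-4c the number was 1, beside 1.79% of all genes, and 2 with RLE factors, 2 with the 10 CPM filter, 4 with DESeq2 and 3 with only the groups compared. Network genes passed in si-2c versus con-4c were 15, and 26 with the 10 CPM filter and 31 with DESeq2, and in si-4c versus con-2c 0, and 3 with DESeq2. In the main fit of si-2c versus con-4c, 3.17% of the network was higher and 8.73% lower, beside 2.22% and 5.32% of all genes. In si-4c versus con-2c 0.106% of all genes were higher and 0.567% lower. Shares of all genes under the alternatives are not given.

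Leaving out 1 library, HSF1 ranged from -0.23 to 0.21 in con-4c versus con-2c, -0.30 to 0.17 in si-2c versus con-2c and -0.26 to 0.043 in si-4c versus con-4c, and HSF2 from -0.45 to 0.76, -0.023 to 0.49 and -0.69 to 0.52. HSF2 turned sign without replicate 3 of con-4c or of si-2c. HSP90AB1 ranged from 0.20 to 0.33 in si-2c versus con-2c, -0.20 to -0.16 in si-4c versus con-4c (passing without replicate 3 of si-2c) and -0.087 to 0.037 in si-4c versus si-2c. HSPA4 ranged from -0.46 to -0.37 in si-2c versus con-4c and -0.030 to 0.048 in si-4c versus con-2c. In si-2c versus con-2c HSPA5 ranged from -0.075 to 0.11 and HSPA9 from -0.071 to 0.14, and HSPD1 in si-4c versus con-4c from -0.052 to 0.13. Members with the fold ranged from 0 to 1 in si-2c versus con-2c, and members passed from 1 to 2 in si-2c versus con-4c. In si-2c versus con-4c, network genes with the fold ranged from 1 to 3 and those passed from 8 (without replicate 3 of con-4c) to 19, and in si-4c versus con-2c those passed from 0 to 1.

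Deviations from the group means correlated from -0.05 to 0.03 over 18 pairs with the same replicate number. Over 36 pairs with different numbers they correlated from -0.039 to 0.046. No pairing by replicate number was seen, though this cannot show whether libraries of the same number shared a culture. With a replicate block, HSF1 in con-4c versus con-2c was 0.002 in place of -0.019, and the members passed were 4, 4 and 3 in the comparisons of con-4c with con-2c, si-2c with con-2c and si-4c with con-4c, as without it.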
